A study of Homo sapiens with 14 samples.

Results

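The proteasome is built from subunits whose mRNAs make up the gene module described here. The module holds 35 genes, chosen by name: PSMA1 to PSMA7, PSMB1 to PSMB7, PSMC1 to PSMC6, PSMD1, PSMD2, PSMD3, PSMD4, PSMD6, PSMD7, PSMD8, PSMD11, PSMD12, PSMD13, PSMD14, PSME1, PSME2, PSME3 and ADRM1. All 35 were found among the 4257 protein-coding genes in the data, with 244 of the 20512 transcripts. The rule uses names alone, although the module was proposed with earlier results of these data known.

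The proteasome degrades proteins that carry ubiquitin. Its 20S core particle is a barrel of stacked rings, in which the outer alpha rings (PSMA genes) gate entry and the inner beta rings (PSMB genes) carry the proteolytic sites. The 19S regulatory particle binds ubiquitin chains, removes them and unfolds the substrate: PSMC genes encode its ring of ATPases, and PSMD genes and ADRM1 its other subunits. The 11S activators (PSME genes) are alternative caps that open the core without ATP. Subunits are made in fixed proportion, and cells raise their mRNAs together when proteasome activity is short.

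RNA structure was probed in K562, a human chronic myelogenous leukemia cell line, by 2 azide-bearing reagents. NAI-N3 (icSHAPE, 100 mM for 5 min) acylates the 2′ hydroxyl of flexible nucleotides, and NAz-N3 (icLASER, from a 1 M stock, with 10 min of UV light) marks purines that are exposed to solvent. Each reagent was applied to living cells (in vivo) and to total RNA that had been isolated and refolded (in vitro), with 2 libraries per group except for 3 of icSHAPE in vivo, beside 3 DMSO controls for icSHAPE and 2 controls without UV light for icLASER. All 14 libraries came from K562 cells and from RNA enriched for polyadenylated transcripts, and the protocol text of the labels names the UV step for the no-UV controls as well.

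The libraries were combined into 4 profiles, 1 for each reagent and condition. Each profile gives a transcript's level in RPKM (reads scaled to the length of the transcript and the number of mapped reads) and a score from about 0 to 1 for each nucleotide, which is high where the reagent left more stops than in its control. With 1 profile for each reagent and condition there was no replicate spread, no test and no p-value, and every difference below compares 2 profiles. The depth behind a score is unknown. Scores are listed at all bases with both reagents, so icLASER means below include C and U as well as purines. Profiles held 12256 to 16648 transcripts, had lowest levels of 5.006 to 5.13 RPKM, and had 46.7 to 62.5% of their scores at exactly 0. The erythroid markers of K562 were present in all 4 profiles for 8 of 10 genes, with gamma-globin HBG1 at 1225 to 2652 RPKM, and TAL1 and EPOR were absent. The 5 markers of T cells, B cells, liver, fibroblasts and monocytes were absent. A gene absent from a profile may lie below its lowest listed level.

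Proteasome subunit mRNAs were abundant in these cells, and the 20S core stood above the regulatory particle. For each gene the transcript with the highest mean RPKM over the 4 profiles was used, counting a missing profile as 0. For 27 members this transcript is annotated as protein-coding, and for the others as coding without a defined coding sequence (4), subject to nonsense-mediated decay (3) or with a retained intron (1). The median of these means was 21.0 RPKM over the 35 members and 9.87 over the 4222 other coding genes, and 28 of 35 members lay above the latter. By subcomplex the median was 57.4 RPKM in the beta ring, 40.2 in the alpha ring, 14.6 in the ATPase ring, 14.3 in the other 19S subunits and 5.19 in the 11S activators. All 14 core subunits were above the median of the other coding genes, and none of the 3 activators was.

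**Figure D1:**
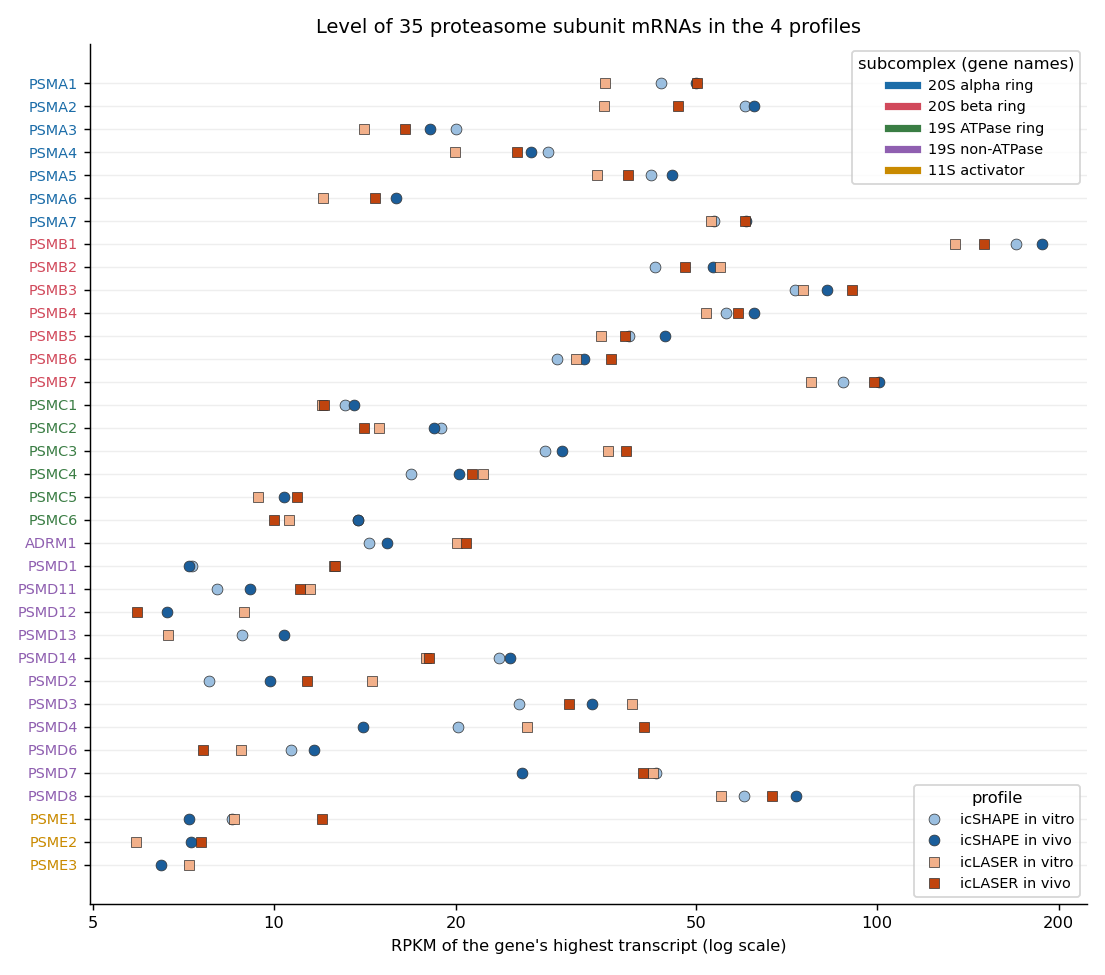
RPKM (log scale) of the highest transcript of each of 35 members in the 4 profiles, 1 point per profile, with gene names coloured by subcomplex. The PSMB1 points lie furthest to the right, from 134 to 188 RPKM, and PSMD12, PSME2 and PSME3 lie furthest to the left, below 9 RPKM.

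PSMB1, a beta ring subunit without proteolytic activity, had the highest level, at 169.6 RPKM with icSHAPE in vitro, 188 in vivo, 134 with icLASER in vitro and 150.5 in vivo. PSMB7, the trypsin-like protease of the core, followed at 87.9, 101, 77.6 and 98.6 RPKM in the same order. PSMB3, another beta subunit without an active site, had 73.1, 82.6, 75.4 and 90.7 RPKM. In all 3 genes the in vivo profile was the higher one with both reagents. Over all members it was higher in 23 of 30 with icSHAPE and in 23 of 33 with icLASER. The shares of other coding genes were 66.9% and 59.5%. The lowest was PSME3, the gamma form of the 11S activator, listed at 6.497 RPKM with icSHAPE in vivo and 7.23 with icLASER in vitro and absent from the other profiles. PSME2, the beta form of the activator, had 7.27 RPKM with icSHAPE in vivo, 5.89 with icLASER in vitro and 7.58 in vivo. PSMD12, a scaffold subunit of the 19S lid, had 6.64, 8.92 and 5.92 RPKM in those 3 profiles. These 3 genes, PSMA6 and PSMC5 were the 5 members absent from icSHAPE in vitro, while PSME3 was absent from icLASER in vivo. The PSMD13 transcript used for RPKM, ENST00000529372, was missing there too, but other PSMD13 transcripts were listed, among them ENST00000431206 at 7.69 RPKM. With a missing profile counted as 0, mean RPKM differed 46.8-fold between PSMB1 and PSME3, and within the beta ring the range was 4.94-fold.

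Levels in cells and in refolded RNA were close for most members. The median ratio of in vivo to in vitro was 1.10 over 30 members with icSHAPE and 1.12 over 33 with icLASER, beside 1.068 and 1.048 over 2520 and 3121 other coding genes. On the log2 scale the members' medians were 0.14 and 0.16. Dividing each profile by its own median RPKM moved the icSHAPE medians to 0.39 for members and 0.35 for the others, since the median over other coding genes was 15.5 RPKM in vitro and 12.98 in vivo. With icSHAPE 0 members were at least 1.5-fold higher in vivo, where 2.54% of other coding genes were, and 1 was at least 1.5-fold higher in vitro, against 2.50% of the others. For icLASER the counts were 1 and 1 of 33, against 8.14% and 3.59%. The shares are near the background in both directions.

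The genes past 1.5-fold were PSMD7, PSMD4 and PSMD12, all of the 19S particle outside the ATPase ring. PSMD7, the lid partner of the deubiquitinase PSMD14, had 43.0 RPKM with icSHAPE in vitro and 25.8 in vivo, a ratio of 0.599, while its icLASER values of 42.5 and 40.9 were alike. The gap was not in every PSMD7 transcript. ENST00000568717, which with the first one extends furthest 3′, had 40.0 and 18.3 RPKM, a ratio of 0.458. The other 4 PSMD7 transcripts, which end further upstream, had ratios of 0.957 to 1.085, and among them ENST00000567958 had 15.6 and 16.4 RPKM. PSMD4, a ubiquitin receptor, had 20.2 and 14.02 RPKM with icSHAPE and 26.3 and 41.1 with icLASER, so that the 2 reagents differed in opposite directions. Its value came from a transcript of 371 nt, ENST00000453615, and the transcript ENST00000368884 of 1350 nt had ratios of 0.965 and 1.14. PSMD12 had a ratio of 0.663 with icLASER in ENST00000584008, a transcript annotated for nonsense-mediated decay. Its coding transcripts ENST00000357146 and ENST00000356126 had ratios of 0.741 and 0.919, within 1.5-fold. Transcripts of a gene share reads, so RPKM of a short transcript may include reads of the longer ones, and how the reads were divided among them is not given in the sources used here.

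The reagents gave like levels for most members. Over 29 members in all 4 profiles, the ratio of icLASER to icSHAPE had a median of -0.10 on the log2 scale, from -0.58 in PSMA2 to 0.98 in PSMD4, and the median of 2377 other genes was 0.02. Base composition moved with this ratio: across 927 coding genes whose transcript matched the annotation, the GC content correlated with it at a Spearman rho of 0.432. PSMA2 had 39.5% GC and PSMC6, at -0.42, had 32.9%, while PSMD2, at 0.55, had 52.4% and PSMC3, at 0.35, had 56.2%. PSMD1 went apart from this order, with 0.79 at 42.1% GC, and so did PSMB5, with -0.19 at 52.4%. PSMD4, with the highest ratio, had 50.4% GC. Across the 13 members in that set the rho was 0.643. The genes of such a correlation share the same libraries, so it is a description of these profiles.

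Region scores needed transcripts whose coding sequence could be located. Of 10575 coding transcripts, 6520 had the length of the same identifier in GENCODE release 44, which gave 31 members and 2549 other genes. A further 3427 were placed on the annotation by their scores, a choice made after seeing the data, which gave 34 members and 3833 other genes. As a check, 3260 transcripts of matching length were treated in the same way. Of these 3024 had a clear place, and 99.8% of those were placed correctly. The check did not cover transcripts of other length, so the accuracy for them is unknown. The 2 sets used the same transcript for 16 members, and 15 members moved to a more abundant one once the placed transcripts were added. PSMB1, PSMB4 and PSMD1 entered only through placing, and PSMA5 had no usable transcript. Counts for the length-matched set are given first and those with placed transcripts after them.

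Compared with other coding genes, members had shorter untranslated regions with less GC in the 5′ UTR. The median 3′ UTR length was 159.5 nt in 34 members and 564 nt in 3724 other genes. For the 5′ UTR it was 116 nt in 30 members and 147 nt in 3538 others, with a median GC content of 61.6% and 67.3%. Coding sequences had medians of 884 and 834 nt.

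In coding sequences, icSHAPE scores were higher in cells for nearly all members. The mean score was higher in vivo in 21 of 23 members, with a median difference of 0.0285, where 85.1% of 1461 other genes were higher with a median of 0.0285. With placed transcripts 27 of 27 members were higher, with a median of 0.0362, against 86.6% of 2355 genes and a median of 0.0338. The whole icSHAPE in vivo profile was higher, with a mean of 0.173 over coding transcripts against 0.148 in vitro. After each profile was divided by its mean, 12 of 23 members were higher, against 50.9% of the others, or 19 of 27 against 56.7%. Members thus went with the other genes.

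PSMB2, a beta subunit without an active site, had the largest icSHAPE difference in its coding sequence, from 0.0597 in vitro to 0.161 in vivo. This value rests on a transcript of 15.5 to 24.1 RPKM, since the PSMB2 transcript of 42.8 to 54.8 RPKM had no located coding sequence. PSMD3, a scaffold of the lid, went from 0.162 to 0.235 in the length-matched transcript ENST00000540504 and from 0.178 to 0.210 in the placed transcript. PSMC2, an ATPase, differed by 0.0588 in the first set and by 0.0651 with the placed transcript, next after PSMB2. The lowest values were in PSMA1 at -0.0188, PSMD14 at -0.0177 and PSMA7 at 0.00631. With their placed transcripts these 3 were at 0.0366, 0.0400 and 0.0319, and the lowest were PSMD8 at 0.00263, PSMA4 at 0.00902 and PSMC3 at 0.0138.

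With icLASER the coding sequences had similar mean scores in both conditions. Of 29 members 17 were higher, with a median of 0.00444, against 46.4% of 1783 others with a median of -0.00352. Placed transcripts gave 19 of 33, against 38.8% of 2860 others with a median of -0.00959. With placed transcripts 5 of 6 alpha subunits and 5 of 7 beta subunits were higher in vivo, with medians of 0.0152 and 0.0190, whereas 5 of the 12 non-ATPase subunits were, with a median of -0.0121. In the length-matched set the medians were 0.00446, 0.00437 and -0.00644, with the ATPases above them at 0.01675. No test separated these groups. Level moved with it, as the difference had a Spearman rho of 0.276 with mean RPKM across 1812 genes, and the part of level in it was not tested.

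PSMB2 was the highest, from 0.136 to 0.218, then PSMD14, from 0.0729 to 0.153 in a transcript with 223 scored positions, and PSMA1, from 0.117 to 0.172. In its placed transcript PSMD14 differed by 0.0155. The lowest were PSMD11, a helical scaffold of the lid, from 0.197 to 0.138, PSMD12, from 0.202 to 0.151, and PSMB5, the chymotrypsin-like protease, from 0.245 to 0.196 over 255 scored positions. PSMD1, the large base scaffold, was lowest with placed transcripts, from 0.171 to 0.105.

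In 5′ UTRs, icLASER scores were lower in cells. The mean was higher in vivo in 4 of 21 members, with a median difference of -0.0612, and in 23.7% of 1325 other genes, with a median of -0.0442. With placed transcripts 3 of 27 members were higher and the median was -0.0802, against 20.8% of 2491 genes and -0.0560. Members began from a higher level, with a median score of 0.291 in vitro against 0.2399 in the others, and reached 0.2397 and 0.185 in vivo. With placed transcripts the median was -0.143 over 4 alpha subunits and -0.148 over 5 beta subunits, with the ATPases at -0.0486 and the other 19S subunits at -0.0850. The place of the beta ring turned on the transcript: in the length-matched set it had the highest median of these groups, -0.0290 over 3 genes, with the ATPases at -0.0612 and the alpha ring lowest at -0.2097. PSMB3 was at -0.159 and PSMB6 at -0.176 in placed transcripts but at -0.0404 and -0.0290 in length-matched ones. PSMB1 and PSMB4, measured only by placing, were at -0.143 and -0.148, and PSMB2 was at 0.00422 in the less abundant ENST00000621781.

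PSMA2 had the lowest difference among length-matched transcripts, from 0.578 in vitro to 0.336 in vivo, in a 5′ UTR with 21 scored positions. PSMA4 went from 0.511 to 0.302 over 28 positions, and PSMC3, an ATPase, from 0.324 to 0.193 over 188. PSMD1, measured only by placing, went from 0.367 to 0.0962. The highest were PSMD7 from 0.228 to 0.275, PSMD12 from 0.154 to 0.194 and PSMC4 from 0.309 to 0.329. For PSMD7 the placed transcript was at -0.00572.

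The icSHAPE scores of 5′ UTRs differed in both directions. In cells 7 of 16 members had the higher score, at a median difference of -0.00107, while 65.3% of 1135 other genes were higher, with a median of 0.0248. With placed transcripts 9 of 22 members were higher and the median was -0.0102, against 62.4% of 2080 genes and 0.0201. Dividing each profile by its mean gave 6 of 16 members against 45.7% of the others, and 7 of 22 against 43.8%. The median lies close to 0 and turned positive in 3 of the alternatives given at the end. Among genes with a mean of at least 20 RPKM, 5 of 8 members were higher, with a median of 0.0519, beside 56.9% of the others and 0.0110. For 12 of 22 members with placed transcripts both reagents were lower in vivo, as they were in 29.9% of 1954 other genes.

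PSMD11 had the lowest icSHAPE difference, from 0.317 to 0.0747 over 44 positions, of which 13 were lower in vivo and 2 higher. In its placed transcript it went from 0.191 to 0.0814. PSMA2 went from 0.351 to 0.224, and PSMC4 from 0.222 to 0.158. With placed transcripts PSMB4 was lowest, from 0.387 to 0.137, followed by PSMA2 and PSMD11. PSMA4 was highest, from 0.261 to 0.431 over 39 positions, so that its 5′ UTR was higher in cells with icSHAPE and lower with icLASER. PSMA1 went from 0.104 to 0.222 and PSMB2 from 0.113 to 0.223. PSMA1 was at -0.00927 in its placed transcript, which has another 5′ UTR. The length-matched PSMA1 5′ UTR spans the AUG at chr11:14520299, at which the placed transcript starts. The PSMB2 value is from ENST00000621781, since the more abundant PSMB2 transcript had no located coding sequence. Whether parts of these 5′ UTRs are coding in more abundant transcripts was not examined.

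**Figure D2:**
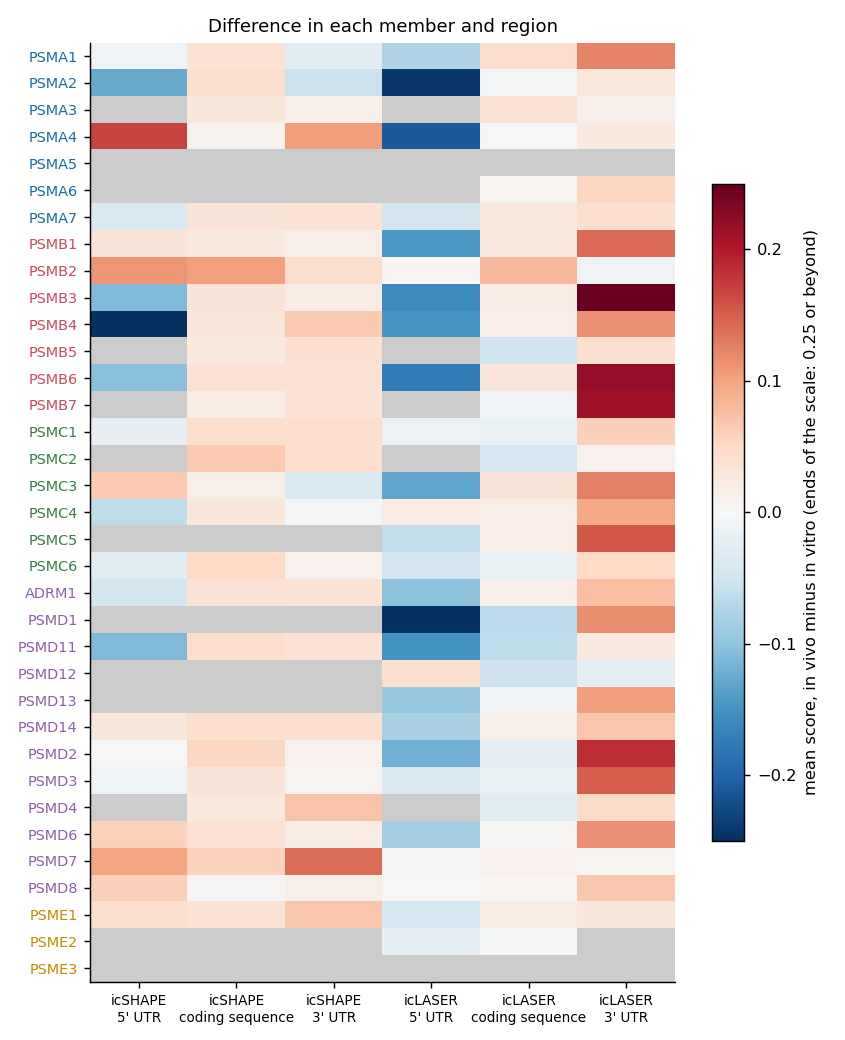
Difference in mean score, in vivo minus in vitro, for each member (rows, ordered by subcomplex) and each reagent and region (columns), with placed transcripts included and grey where too few positions were scored. The icLASER columns run from blue in the 5′ UTR to red in the 3′ UTR in most rows, and PSMA4 has opposite signs for the reagents in its 5′ UTR.

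In 3′ UTRs the scores were higher in cells with both reagents. With icLASER the mean was higher in vivo in 20 of 23 members, with a median of 0.0603, and in 87.3% of 1547 other genes, with a median of 0.0526. Placed transcripts gave 30 of 32 members with a median of 0.0686, against 85.9% of 2708 genes and 0.0513. With icSHAPE 12 of 18 members were higher, with a median of 0.0384, against 78.8% of 1229 genes and 0.0275, and with placed transcripts 23 of 27, with a median of 0.0337, against 81.6% of 2218 genes and 0.0281. In vitro the icSHAPE level was 0.0839 in members and 0.112 in the other genes. Within a member, the icLASER difference of the 3′ UTR exceeded that of the coding sequence in 20 of 23 genes, beside 86.5% of 1532 others. After each profile was divided by its mean, 10 of 18 members were higher with icSHAPE, against 59.5% of the others, and 20 of 23 with icLASER, against 87.1%.

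The icLASER difference in the 3′ UTR varied between subcomplexes, in an order that depended on the transcripts used. With placed transcripts the median of the 7 beta ring genes was 0.142, beside 0.0340 in the alpha ring, 0.0773 in the ATPases and 0.0732 in the other 19S subunits. In the length-matched set the ATPases had the highest median, 0.09425, and the 3 beta genes measured had 0.0404. PSMB3 went from 0.0591 in vitro to 0.324 in vivo, PSMB6, the caspase-like protease, from 0.112 to 0.331, and PSMB7 from 0.114 to 0.325, all in placed transcripts and over 34, 51 and 102 positions. The length-matched PSMB6 transcript went from 0.0944 to 0.189. Among length-matched transcripts PSMD2, a base scaffold, was highest, from 0.0684 to 0.253 over 128 positions, then PSMC5 from 0.0496 to 0.204 and PSMD3 from 0.114 to 0.253. The lowest were PSMD12 from 0.0976 to 0.0748, PSMB2 from 0.178 to 0.169 and PSMA7 from 0.213 to 0.205. PSMA7, an alpha subunit, was at 0.0412 in its placed transcript.

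The icLASER difference moved with the length of the 3′ UTR. Across 2740 genes its Spearman rho with length was -0.624, and across the 32 members it was -0.602. The 4 members with the longest 3′ UTRs among those drawn were PSMB2, PSMD11, PSMC2 and PSMD12, and their differences were -0.00903, 0.0228, 0.0107 and -0.0227. With icSHAPE the same correlation was -0.177 over 2245 genes and 0.198 over 27 members. Since members have shorter 3′ UTRs than other genes, and the difference is larger in short ones, the part of length in their median was not tested. Genes in this correlation share their libraries, and it has no p-value.

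For icSHAPE in the 3′ UTR the highest members were PSMA4, from 0.0661 to 0.171, PSME1, from 0.0290 to 0.114, and PSMB6, from 0.0739 to 0.152. The lowest were PSMA1, from 0.178 to 0.1203, PSMA2, from 0.219 to 0.166, and PSMC3, from 0.0636 to 0.0276. With placed transcripts PSMD7 was highest, from 0.0312 to 0.171 over 525 positions, above 99.6% of the other genes, while its icLASER difference was 0.00455. PSMD7 is also the gene whose icSHAPE level was lower in vivo in the transcripts that run through this 3′ UTR.

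Start codons were set in like sequence in members and other genes. Of 30 members with a readable start, 28 had a purine 3 nt before the AUG and 16 had a G after it, which is 93.3% and 53.3%, beside 88.6% and 54.4% of 3460 other genes. The windows of 20 nt below are given 5′ to 3′ from GENCODE 44 with the start codon in capitals. The first 3 had the lowest and the last 3 the highest difference, in vivo minus in vitro, averaged over both reagents. On the higher side the differences of PSMB2 (0.0549) and PSMC3 (0.0151) were small, and windows not listed differed more, such as PSMD2 at -0.126. All 6 were chosen after their values were seen.
PSMD3: cccgggugccAUGaagcagg
PSMC1: cuaucuucucAUGgaggaag
PSMB5: cacacuagacAUGgcgcuug
PSMD7: gugugucgcgAUGccggagc
PSMB2: gcuguauuacAUGgacuacc
PSMC3: ccuccaggaaAUGaaucugc
The A of these start codons lies on GRCh38 at chr17:39980971 for PSMD3 and at chr14:90263383 for PSMC1, both on the plus strand. For PSMB5 it is at chr14:23034881 on the minus strand, for PSMD7 at chr16:74296915 on the plus strand, and for PSMB2 at chr1:35609342 and PSMC3 at chr11:47426279 on the minus strand. For PSMB2 and PSMC1 these are the annotated starts of ENST00000621781 and ENST00000543772. That PSMB2 transcript had 15.5 to 24.1 RPKM, beside 42.8 to 54.8 RPKM in ENST00000373237. Whether these AUGs lie inside the coding sequence of other PSMB2 and PSMC1 transcripts was not examined.

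In the PSMC1 window the mean score was 0.312 with icSHAPE in vitro, 0.190 in vivo, 0.593 with icLASER in vitro and 0.348 in vivo, lower in cells with both reagents. The PSMD3 window had 0.448, 0.222, 0.638 and 0.482 in the same order, and PSMB5 had 0.466, 0.417, 0.361 and 0.135. The PSMD7 window was higher in cells with both reagents, at 0.186, 0.291, 0.24 and 0.407. PSMB2 (0.151, 0.293, 0.232 and 0.2004) and PSMC3 (0.174, 0.316, 0.185 and 0.0735) were higher in vivo with icSHAPE and lower with icLASER.

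Over all members with such a window, icLASER was lower in cells around the start. It was higher in vivo in 5 of 29 members, with a median difference of -0.100, beside 29.8% of 2588 other genes and -0.0439. With icSHAPE 12 of 24 members were higher, with a median of 0.000125, beside 61.0% of 2165 others and 0.0227. At the G of the AUG the icLASER score averaged 0.566 ± 0.410 in vitro and 0.366 ± 0.348 in vivo (SD over 24 length-matched members), above the 0.277 and 0.207 of the 50 nt on each side. In the other genes it was 0.475 and 0.327. With placed transcripts the in vivo order turned, with 0.551 in vitro and 0.272 in vivo over 29 members beside 0.479 and 0.321 in the others. With icSHAPE the same G averaged 0.126 ± 0.313 over 19 members and 0.206 ± 0.329 over 23, with flanks at 0.219 and 0.209. With placed transcripts it averaged 0.274 in vivo over 28 members, above flanks of 0.204, although it was above them in 10 of the 28. The SD shows how widely members differ among themselves and is larger than each of these gaps.

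At stop codons the middle base had the highest icLASER score, 0.258 ± 0.300 in vitro (25 members) and 0.379 ± 0.324 in vivo (24 members), with flanks at 0.136 and 0.206. The other genes had 0.324 and 0.344. With placed transcripts the members had 0.194 and 0.278, below the 0.310 and 0.334 of the other genes in both conditions. Within coding sequences the first base of the codon had the highest mean icSHAPE score in 21 of 25 members in vitro and 30 of 30 in vivo, and in 81.0% and 88% of other genes. For icLASER it was 28 of 31 in vitro and 26 of 30 in vivo, beside 75.1% and 71.1% of the others. Base composition differs between codon positions, and its part in this was not tested.

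Single stretches were then taken from the members. In each of the 23 members with a length-matched transcript in all 4 profiles, the 20-nt windows with the lowest and the highest difference, averaged over both reagents, were taken. The lowest windows ranged from -0.390 to -0.0654 and the highest from 0.119 to 0.3997. Of the lowest, 15 lay in the coding sequence, 7 in the 5′ UTR and 1 in the 3′ UTR, and of the highest 15, 2 and 6. The counts were not set against region length, which over members had medians of 884, 116 and 159.5 nt in that order. Being chosen as extremes of these values, they are described and have no test. Capitals include C and U, although icLASER marks purines, and what its scores at C and U reflect was not tested. The 3 windows lower in vivo follow, with the nucleotides that were lower with both reagents in capitals, and then the 3 higher windows with capitals at nucleotides higher with both, all 5′ to 3′ from the transcript sequences of GENCODE 44.
PSME1: AGcCAACUUGAGCaauCuGA
PSMC2: GgAaGCAAggAAGgUgcUgu
PSMC3: gcUcaAgaUguCcAcggAgg
PSMD11: AagAuUAUUcUaAAuAAAAG
PSMB2: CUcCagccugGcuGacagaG
PSMD2: aAuCaCACuauGuAUuGuau

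The PSME1 window lies in the coding sequence, in exon 4 of 11 of ENST00000561435 (chr14:24137338-24137357, plus strand, GRCh38). PSME1 encodes the alpha form of the 11S activator. The mean score was 0.654 with icSHAPE in vitro, 0.140 in vivo, 0.816 with icLASER in vitro and 0.549 in vivo, and 15 of the 20 nucleotides were lower in cells with both reagents. The transcript had 5.67 to 11.4 RPKM, among the lower levels of the module.

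The PSMC2 window is in the 5′ UTR, in exon 2 of ENST00000435765 (chr7:103347654-103347673, plus strand), with its first nucleotide at -58 counted from the A of the start codon. Its values were 0.561 and 0.1599 with icSHAPE and 0.638 and 0.308 with icLASER, in vitro and in vivo. In PSMC3 the window is in exon 2 of the coding sequence (chr11:47425908-47425927, minus strand), with 0.707 and 0.301 for icSHAPE and 0.944 and 0.728 for icLASER. In that window 6 nucleotides were lower with both reagents.

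The highest window, in PSMD11, is in the 3′ UTR and in the last exon of ENST00000457654 (chr17:32480988-32481007, plus strand). It went from 0.276 to 0.438 with icSHAPE and from 0.188 to 0.826 with icLASER, so that most of the difference came from icLASER. The PSMB2 window, also in a 3′ UTR (chr1:35601099-35601118, minus strand), had 0.119 and 0.167 with icSHAPE and 0.0486 and 0.583 with icLASER. Its sequence occurs 772 times in the genome, and reads from other copies cannot be told apart from those of PSMB2. The PSMD11 and PSMD2 windows occur 2 times each, and the other 3 windows once. In PSMD2 the window is in the coding sequence, in exon 18 of 19 (chr3:184308461-184308480, plus strand), with 0.126 and 0.499 for icSHAPE and 0.170 and 0.361 for icLASER, higher in cells with both.

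Profiles of a member were alike between conditions and less so between reagents. The Pearson r across positions, in vitro with in vivo, had a median of 0.505 over 27 members with icSHAPE and 0.656 over 33 with icLASER, beside medians of 0.476 and 0.527 in the other genes. Between the reagents it was 0.382 in vitro and 0.377 in vivo, beside 0.347 and 0.319. The labels list a single control group for both conditions of a reagent, and the reagents differ in the bases they mark. The part of either in these values was not tested. The highest values were 0.826 in PSMD7 with icLASER and 0.743 in PSMB7 with icSHAPE, and the lowest were 0.211 in PSMD1 with icLASER and 0.279 in PSMB2 with icSHAPE. In PSMD7 the icSHAPE value was 0.308, far below its icLASER value, and its reagents correlated at 0.701 in vitro and 0.293 in vivo, so its icSHAPE in vivo profile was the one that stood apart. Positions of a transcript share their coverage, so these correlations are descriptions with no p-value.

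Of 30 other genes of the pathway, 22 were in the profiles. Among them RPS27A, which encodes ubiquitin fused to a ribosomal protein, had a mean of 389 RPKM, and UBB, a polyubiquitin gene, had 195. The 5 assembly chaperones were all present, with POMP, which matures the core, at 52.7 RPKM, PSMG1 at 17.6, PSMG2 at 17.2 and PSMG3 at 16.8. SEM1, a small lid subunit, had 28.7 RPKM, and VCP, the ATPase that extracts ubiquitinated proteins, had 16.4. PSMD5, a chaperone of 19S assembly, had 13.9 RPKM. Among inducible subunits PSMB9, of the immunoproteasome, had 18.0 RPKM while PSMB8 was absent, as were the testis and thymus subunits PSMA8 and PSMB11. NFE2L1 and NFE2L2, transcription factors of the subunit genes, were also absent, with the processing enzymes DDI2 and NGLY1. Absence here does not show that a gene is silent, since its transcripts may lie below the lowest listed levels of 5.006 to 5.13 RPKM.

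With placed transcripts included, the icLASER score was higher in vivo in 5 of 15 of these genes in the 5′ UTR, 8 of 19 in the coding sequence and 14 of 16 in the 3′ UTR. The shares over coding genes other than members were 20.8%, 38.8% and 85.9%, and the counts of members 3 of 27, 19 of 33 and 30 of 32. For icSHAPE the pathway counts were 8 of 13, 12 of 14 and 11 of 12, beside shares of 62.4%, 86.6% and 81.6% and member counts of 9 of 22, 27 of 27 and 23 of 27. No difference between these shares was tested. In the 5′ UTR of PSMB9 the icLASER score went from 0.327 in vitro to 0.501 in vivo. POMP also differed there, from 0.269 to 0.359, while its icSHAPE value went from 0.390 to 0.286.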

How the data were processed

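RNA structure was probed in 14 K562 libraries, of which 9 were treated with a reagent and 5 were controls. Per the methods and the submitters' processing notes, the authors trimmed reads with Trimmomatic, aligned them with Bowtie2 to the Ensembl release 88 transcriptome of GRCh38, and ran the icSHAPE pipeline with default parameters except in the final filter, where they removed the minimum hit coverage and the minimum background base density by setting both to 0. Scores of thinly covered positions are therefore included. The deposited profiles pool the libraries of a group. They give for each transcript an RPKM value computed by the authors and for each nucleotide an enrichment score deposited by the authors, from 0 to 1 in all but 16 of the values. Which libraries the RPKM values rest on is not given in the sources used here, and the depth behind RPKM and score is unknown.

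Genes were named from GENCODE release 44. For RPKM the transcript with the highest mean was taken per gene. For scores, a coding transcript with the length given in GENCODE 44 was required, with at least 20 scored positions in a UTR and 100 in a coding sequence in both conditions. Placing transcripts of other length by their scores was chosen after seeing the data. Mean scores, taken over all bases with both reagents, were subtracted, in vivo minus in vitro. The text names the 3 highest and the 3 lowest members of each comparison, every member past 1.5-fold in RPKM, and others chosen after their values were seen. The members and lists were chosen with earlier results of these data known. Scripts used Python 3.11.15, numpy 2.4.6, scipy 1.17.1 and matplotlib 3.10.9 and were tested on simulated data. Alternatives are given at the end. Values of some pathway genes are not reported here.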

Additional observations from a re-analysis of the deposited data

How the results depend on the processing

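Of 152 alternative values over 20 results, 126 kept their direction and moved by less than the spread between members, or, for a count, by at most 1.5 times. That spread is wide: the median log2 icLASER RPKM ratio of 0.16 was 0.02 with the longest coding transcript, and the icSHAPE score at the G of the start codon, 0.206 in vivo, was 0.0614 with scores moved 1 nucleotide downstream. The median icSHAPE difference of 5′ UTRs, -0.00107, turned to 0.00487 over all coding transcripts and to 0.00192 with at least 50 UTR and 200 coding positions. At a mean RPKM of at least 20 it was 0.0519. The other genes had 0.0260, 0.0259 and 0.0110 in the same order. Over all coding transcripts 12 of 21 members were higher, beside 69.8% of other genes. Dividing each profile by its mean score gave medians, in units of that mean, of -0.1815 and 0.118 for the icSHAPE 5′ and 3′ UTR. The other genes had -0.0287 and 0.0537. For icLASER the medians were -0.393 and 0.382, beside -0.287 and 0.333. In the icSHAPE coding sequence this scaling left 12 of 23 members higher, beside 50.9% of other genes. The share of positions there scored at 0.5 or more was higher in 13 of 23, beside 59.9%. At an RPKM of at least 20, members higher with icSHAPE were 12 of 13 in the coding sequence and 5 of 10 in the 3′ UTR, beside 76.7% and 80.2% of other genes. With icLASER they were 2 of 8, 9 of 13 and 8 of 10 from 5′ to 3′, beside 23.4%, 59.8% and 92.5%. Placed transcripts gave 23 of 27 for the icSHAPE 3′ UTR. Counts were compared as they stand, although the number of members measured changed between alternatives. In the icSHAPE coding sequence 12 of 13 thus counted as moved, beside 21 of 23.

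Members past 1.5-fold in RPKM depended on the transcript. With the longest coding transcript the counts were 0 for icSHAPE higher in vitro, and 0 and 0 for icLASER, beside 1.33%, 10.8% and 3.17% of other genes. Summing transcripts gave 6 of 30 higher in vivo with icSHAPE and 2 of 34 with icLASER, beside 19.9% and 15% of other genes, with 0 higher in vitro with icLASER, beside 11.9%. Dividing by the median RPKM gave 2 and 0 of 30 for icSHAPE, beside 14.2% and 1.31%, with a median log2 ratio of 0.39. Requiring 20 RPKM in both profiles gave 0 higher in vitro with icLASER, beside 2.10%. The causes were not tested. No paired analysis was possible because each deposited profile pools the replicate libraries, so no library could be left out and the spread between them is unknown.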
